A study of Rattus norvegicus with 6 samples.

Results

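Imprinted growth genes were followed in islets of fetal rats: H19, Igf2, Cdkn1c, Dlk1, Meg3, Peg3, Mest, Plagl1, Grb10 and Nnat, 10 of the 17321 genes counted. They were chosen by symbol. A row under the symbol was found for 9 of them, and Meg3 was counted under RGD1566401, an older name that RefSeq gives for it. The libraries came from Sprague Dawley fetuses at gestational day 22, with 3 libraries labelled high glucose and 3 labelled control. High glucose fetuses lay in the left uterine horn, which received 4 mg of glucose per min over 48 h, starting on gestational day 20, and control fetuses in the right horn of the same 3 dams. Every library, high glucose or control, held hand-picked islets of 2 pooled fetal pancreata, and all islets had 24 h of recovery in RPMI with glucose at 5 mM. Horn side and treatment cannot be told apart in this design. File names and sample titles gave opposite horn letters in 6 of 6 libraries. The treatment labels set the directions given here, and each would turn round under the other naming.

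An imprinted gene is read from only the maternal or only the paternal copy, because DNA methylation laid down in the egg or sperm marks one of them. In mouse and human, several paternally expressed imprinted genes promote fetal growth (Igf2, Dlk1, Peg3, Mest) and several maternally expressed ones restrain it (H19, Cdkn1c, Grb10). In mouse and human, Dlk1, Meg3, Cdkn1c and Nnat have been tied to the growth, identity or secretion of beta cells. The counts did not separate the parental alleles.

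Some of the genes sit close together. On rn6 chromosome 1, H19 (215744404 to 215747080) lies 81.0 kb from Igf2 (215828102 to 215838209), and Igf2 lies 18.8 kb from the insulin gene Ins2, all on the minus strand. Cdkn1c (216661067 to 216663721, minus strand) lies 822.9 kb beyond Igf2. On chromosome 6, Dlk1 (133576568 to 133583748) and Meg3 (133658937 to 133691129) lie 75.2 kb apart on the plus strand. The other 5 lie apart from these clusters and from each other. Nnat lies 1.8 kb from Blcap, which is on the opposite strand. Peg3 (70210849 to 70237450) and Plagl1 (7219587 to 7259536) are on chromosome 1, Mest (58052786 to 58063231) on chromosome 4 and Nnat (154043873 to 154046332) on chromosome 3, all on the plus strand. Grb10 (92021851 to 92117923) is on the minus strand of chromosome 14.

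H19 and Igf2 both carry a microRNA gene, and these are shown because the way they were counted may touch the H19 value. Mature sequences come from RefSeq (GRCr8 build), with the seed, bases 2 to 8, in capitals:
rno-miR-675-5p: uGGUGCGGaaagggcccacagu
rno-miR-675-3p: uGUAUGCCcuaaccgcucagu
rno-miR-483-5p: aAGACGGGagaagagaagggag
rno-miR-483-3p: cACUCCUCcccucccgucuugu
The 4 seeds differ. Mir675 occupies 84 bases of an H19 exon on the same strand, whereas Mir483 does not overlap a counted Igf2 exon. Both microRNA genes had 0 counts in all 6 libraries. The mature microRNAs are not measured by a poly(A) library. Some read pairs that touch both H19 and Mir675 may be missing from the H19 count, and how many was not measured. Peg3 overlaps Apeg3 by 932 bases on the opposite strand. Counting was by strand, and Apeg3 had 0 counts in all 6 libraries.

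Promoter windows (250 bases before to 50 after the gene start, RefSeq, GRCr8) were found for 7 of the 10 genes, as 8 windows. H19, Cdkn1c and Nnat had no window and were not searched. The windows of the Dlk1 and Meg3 neighbours and of Peg3 are shown. The first pair was taken because these neighbours were measured at very different levels. Peg3 was taken because its window alone among the 8 held the Plagl1 motif. Capitals mark motif matches:
Dlk1 (chr6:134192347-134192646, plus strand): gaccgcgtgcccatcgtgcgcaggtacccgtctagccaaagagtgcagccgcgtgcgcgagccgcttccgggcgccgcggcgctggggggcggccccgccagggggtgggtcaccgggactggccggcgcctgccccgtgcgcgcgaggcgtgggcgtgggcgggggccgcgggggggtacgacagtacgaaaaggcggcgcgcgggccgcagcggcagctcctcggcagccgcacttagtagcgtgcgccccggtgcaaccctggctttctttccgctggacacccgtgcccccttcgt
Meg3 (chr6:134273806-134274105, plus strand): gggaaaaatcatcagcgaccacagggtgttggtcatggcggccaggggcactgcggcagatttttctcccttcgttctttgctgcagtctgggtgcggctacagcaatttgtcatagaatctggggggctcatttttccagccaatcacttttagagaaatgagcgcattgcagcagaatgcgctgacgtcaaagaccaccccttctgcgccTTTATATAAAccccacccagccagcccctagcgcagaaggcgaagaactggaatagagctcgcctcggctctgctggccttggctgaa
Peg3 (chr1:76130744-76131043, plus strand): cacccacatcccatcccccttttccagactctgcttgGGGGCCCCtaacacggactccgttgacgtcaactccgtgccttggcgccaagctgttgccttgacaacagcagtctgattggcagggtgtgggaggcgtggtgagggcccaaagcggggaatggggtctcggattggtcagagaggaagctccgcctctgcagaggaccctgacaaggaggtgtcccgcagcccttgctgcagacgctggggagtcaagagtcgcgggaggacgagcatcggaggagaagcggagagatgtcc
The motifs searched on both strands were GGGGCCCC, which the Plagl1 protein binds, the core of the site of the insulator protein CTCF, and TATAAA. They were found in 0.858%, 0.0747% and 14.2% of all 33469 windows of this length. The Meg3 window held TATAAA on both strands, as overlapping matches that begin 38 bases before the start, and the Peg3 window held GGGGCCCC 213 bases before the start. The 6 other windows held none of the 3 motifs. The Dlk1 window held 45 CpG dinucleotides, more than 98.3% of all windows, and the Grb10 window 44, more than 98.1%. The Meg3 window held 13, against a median of 7 over all windows.

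The libraries held 22643755 to 30229658 counts in high glucose and 18077841 to 30993532 in control. Per length, the insulin gene Ins1 ranked 1 among all genes in 5 libraries and 2 in the other, and genes of other cell types were also present. The 10 mesenchyme genes took 2.49% to 3.53% of counts in high glucose and 1.93% to 3.89% in control. The 7 counted beta cell genes took 0.527% to 1.95% in high glucose and 1.21% to 2.23% in control. In such bulk samples, fewer cells of a type and less RNA per cell cannot be told apart.

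The 10 genes differed widely in level. Per length, as RPKM (CPM, the count scaled to library depth with TMM factors, divided by the kilobases of counted exon), H19 averaged 3948 ± 1287, Dlk1 840 ± 333 and Igf2 561 ± 321 (SD, n = 6). H19 stood above Dlk1 with no overlap of their ranges. Dlk1 was above Igf2 in 6 of 6 libraries, although the ranges overlapped (349 to 1213 against 259 to 1093 RPKM). A middle group followed with no overlap with Igf2. It held Nnat at 99.3 ± 42.3, Mest at 95.8 ± 37.2, Grb10 at 82.9 ± 14.2, Peg3 at 56.1 ± 24.2 and Cdkn1c at 41.5 ± 26.2 RPKM (SD, n = 6). Each of these overlapped its neighbour in the order, and Nnat was above Mest in only 3 of 6 libraries. Plagl1 came next at 23.4 ± 12.8 RPKM, its range overlapping that of Cdkn1c. Meg3 was last at 3.67 ± 1.86 RPKM, below the lowest Plagl1 value in 6 of 6 libraries.

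**Figure D1:**
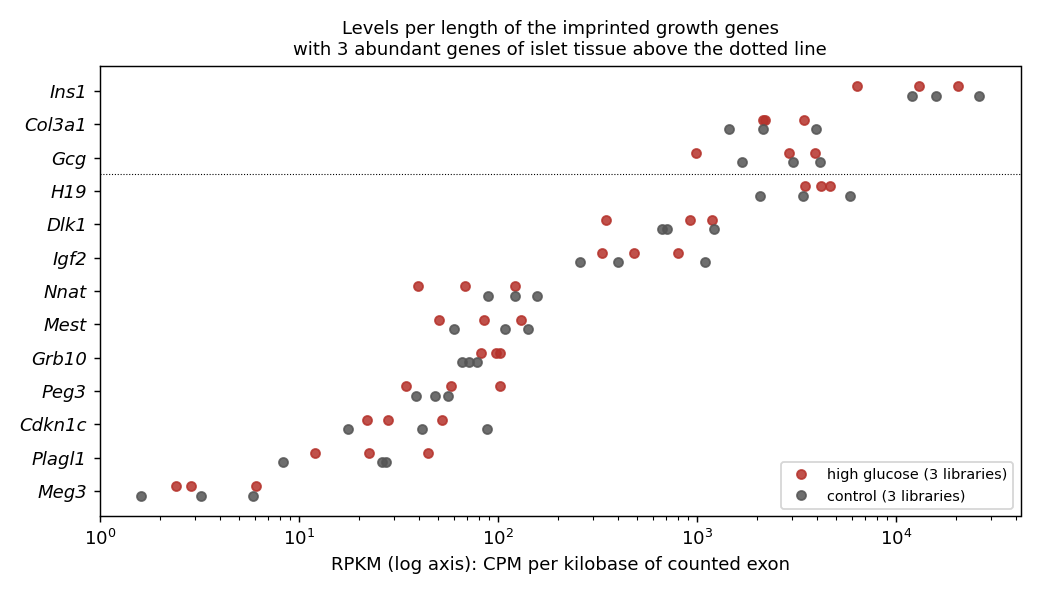
Levels of the 10 genes as RPKM on a log axis, 1 point per library (red, high glucose above; grey, control below), with Ins1, Col3a1 and the glucagon gene Gcg for scale. The H19 range overlaps those of Col3a1 and Gcg, and Meg3 lies far to the left of Dlk1, its neighbour on chromosome 6.

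By share of all counts, the 10 genes together took 1.45%, 1.48% and 1.51% in the high glucose libraries of dam pairs 1, 2 and 3, against 0.929%, 1.96% and 1.19% in the controls. The 95% Wilson interval of each share was at most 0.00639 percentage points to either side, for counting error only. The 3 high glucose shares fell inside the range of the control shares. H19 made up 59.0%, 59.5% and 76.3% of these counts in high glucose and 57.7%, 62.4% and 65.5% in control, so the sum mainly follows H19. By CPM, H19 ranked 2 to 6 among all genes in every library.

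The comparison of infused with control fetuses of the same dam asked whether any of these genes moved with glucose. None passed the test. Of the 10 genes, 0 had an adjusted p below 0.05 in the edgeR quasi-likelihood test with dam as a block, and 0 had an unadjusted edgeR p below 0.05 (4.82% of all genes did). DESeq2 called 0, with Nnat at an unadjusted p of 0.0253 and Grb10 at 0.046. Over all genes, 658 had an unadjusted DESeq2 p below 0.05, in a fit that gave 12850 genes an adjusted p. Over all 12276 genes tested, edgeR called 2 (0.0163%), both lower in high glucose. The adjusted p from edgeR was 1 for each of the 10. For 8 of the 10 the difference changed sign between dam pairs. The difference ran one way in all 3 pairs in 2 of the 10, against 23.0% of all genes. Grb10 was higher in high glucose in all 3 pairs, as were 11.8% of all genes, and Mest lower, as were 11.2%. No gene of the 10 was lower in high glucose with groups that did not overlap, which 2.1% of all genes showed.

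**Figure D2:**
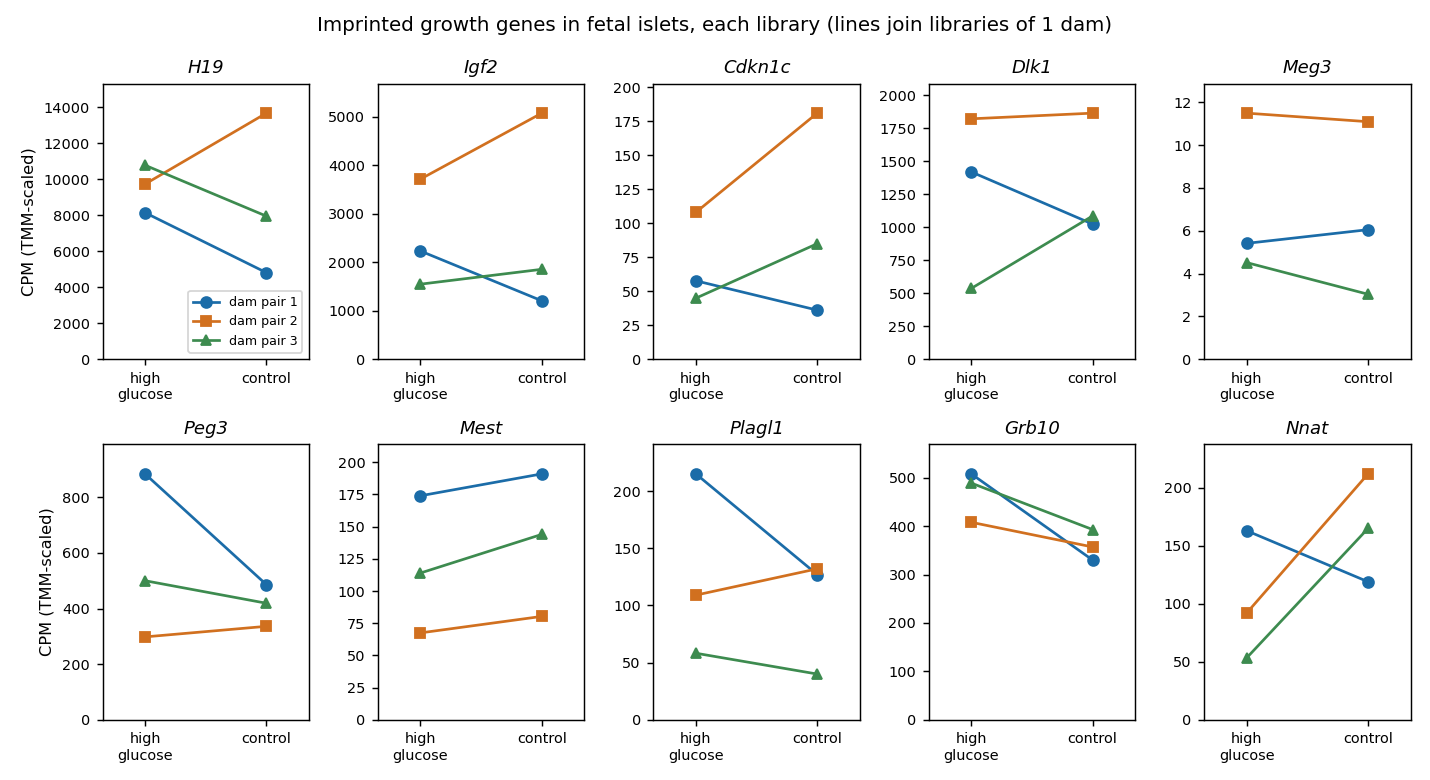
CPM of each gene in each library, with high glucose left of control and a line joining the libraries of 1 dam. Only the Grb10 lines all run one way with groups that do not overlap, and for most genes the lines of dam pair 1 slope against those of another pair.

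Igf2 encodes the fetal growth factor that acts through the IGF1 and insulin receptors. It had 2231, 3716 and 1546 CPM in the high glucose libraries of pairs 1, 2 and 3, against 1203, 5078 and 1853 CPM in the controls. Both libraries of dam 2 were higher than the other 4, and the groups overlapped. The log2 difference was 0.89, -0.45 and -0.26 in the 3 pairs, and 0.05 in the fit (SE 0.30, edgeR adjusted p = 1). Its sign rested on pair 1, since the fit gave -0.36 without it.

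Grb10 encodes an adaptor that binds the insulin and IGF1 receptors and dampens their signal. It had 508, 408 and 489 CPM in high glucose, against 330, 357 and 393 CPM in control. The lowest high glucose library was above the highest control, so the groups did not overlap, which 1.21% of all genes showed in this direction. The mean was 468 ± 53.3 CPM in high glucose and 360 ± 31.8 CPM in control (SD, n = 3 each). The log2 difference was 0.62, 0.19 and 0.32 in the pairs and 0.38 in the fit (SE 0.19), and it did not pass (edgeR adjusted p = 1). The fit gave 0.25 without pair 1. Grb10 also differed least between dams. The mean log2 CPM of the highest dam was 0.20 above that of the lowest, a smaller range than in all but 7.27% of the 7225 genes with a mean CPM of at least 20.

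H19 is a long noncoding RNA that shares enhancers with Igf2 and is read from the opposite parental copy. It had 8139, 9728 and 10777 CPM in high glucose, against 4804, 13673 and 7947 CPM in control. The control libraries held both the lowest and the highest value. Within pairs it differed by 0.76, -0.49 and 0.44 in pairs 1, 2 and 3 (log2 CPM), and by 0.24 in the fit (SE 0.31, edgeR adjusted p = 1), which gave -0.03 without pair 1. The level of H19 was 5.23 to 13.9 times that of Igf2 on the RPKM scale. The ratio was 7.29, 5.23 and 13.9 in high glucose and 7.98, 5.38 and 8.57 in control, so it was nearly equal within dams 1 and 2 and higher in the infused library of dam 3.

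Cdkn1c encodes p57, an inhibitor of cyclin-dependent kinases that holds cells out of the cell cycle. It had 57.6, 108 and 44.8 CPM in high glucose, against 36.0, 181 and 84.9 CPM in control. Dam 2 was again highest, and the groups overlapped. Its log2 difference was 0.68, -0.75 and -0.92 in the pairs and -0.34 in the fit (SE 0.33, edgeR adjusted p = 1). The fit gave -0.84 without pair 1 (edgeR adjusted p = 0.31), -0.12 without pair 2 and -0.04 without pair 3. Among the other 9 genes, Igf2 had the profile closest to that of Cdkn1c over the 6 libraries, with a root mean square difference of centred log2 CPM of 0.27.

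Dlk1 encodes a membrane protein related to Notch ligands that is abundant in fetal pancreas. It had 1420, 1823 and 536 CPM in high glucose, against 1024, 1866 and 1086 CPM in control. The infused library of dam 3 was the lowest of the 6, and the libraries of dam 2 were the 2 highest. The log2 difference was 0.47, -0.03 and -1.02 in the pairs and -0.19 in the fit (SE 0.29, edgeR adjusted p = 1), and the fit gave 0.22 without pair 3. Meg3, the long noncoding RNA read from the other parental copy of the same cluster, had few counts, 89 to 235 per library. It had 5.41, 11.5 and 4.51 CPM in high glucose and 6.05, 11.1 and 3.03 CPM in control, again highest in dam 2. Its log2 difference was 0.15 in the fit (SE 0.31, edgeR adjusted p = 1), and -0.05 without pair 3. Dlk1 was 146 to 439 times Meg3 on the RPKM scale. Meg3 was counted over 1889 bases of exon in the 9 exon blocks the files give it, and RNA from other exons of the locus would not be in its count.

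Plagl1 and Peg3 encode zinc finger transcription factors. In mouse, Plagl1 regulates several other imprinted genes, among them Igf2, H19, Cdkn1c and Dlk1. Plagl1 had 215, 109 and 58.2 CPM in high glucose, against 127, 132 and 40.0 CPM in control. Dam 3 was lowest in both groups, so the groups overlapped, and the range between dams (1.78 on the log2 scale) was wider than the difference in any pair (0.76, -0.28 and 0.54). The fit gave 0.34 (SE 0.22, edgeR adjusted p = 1), and it gave 0.13 without pair 1, 0.65 without pair 2 (edgeR adjusted p = 0.609) and 0.25 without pair 3. Peg3 had 884, 298 and 500 CPM in high glucose, against 486, 336 and 419 CPM in control. Here dam 2 was lowest in both groups, the reverse of Igf2. For Peg3 the log2 difference was 0.86, -0.17 and 0.26 in the pairs and 0.32 in the fit (SE 0.23, edgeR adjusted p = 1). The fit gave 0.04 without pair 1 and 0.56 without pair 2.

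Mest encodes a protein of the alpha/beta hydrolase fold that marks mesoderm and growing fat tissue in mouse. It had 174, 67.5 and 114 CPM in high glucose, against 191, 80.3 and 144 CPM in control. Each infused library was below its own control, but the gap was small beside the spread between dams, so the groups overlapped. For Mest the log2 difference was -0.13, -0.25 and -0.34 in the pairs and -0.24 in the fit (SE 0.17, edgeR adjusted p = 1). Mest ran from dam 1 (highest) through dam 3 to dam 2 (lowest) in both groups, as Peg3 did.

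Nnat encodes neuronatin, a small membrane protein of the endoplasmic reticulum that in mouse beta cells aids insulin processing and secretion. Its level was 121, 68.2 and 39.5 RPKM in high glucose, against 88.5, 157 and 122 RPKM in control. The infused libraries of dams 2 and 3 were the 2 lowest of the 6, while in dam 1 the infused library was the higher one, so the groups overlapped. The mean was 76.2 ± 41.2 RPKM in high glucose and 122 ± 34.3 RPKM in control (SD, n = 3 each). The log2 difference was 0.45, -1.20 and -1.62 in the pairs and -0.81 in the fit (SE 0.45, edgeR adjusted p = 1), the largest in size of the 10 genes. Without pair 1 it was -1.42 and passed (edgeR adjusted p = 0.0102), in a fit that called 0.148% of all genes. It was -0.59 without pair 2 and -0.37 without pair 3. The positive sign in pair 1 and negative sign in pairs 2 and 3 were shared by the medians of several marker lists, endocrine and mesenchymal. One was the beta cell list, whose median log2 difference was 0.83, -0.28 and -2.33 in the pairs over 7 genes tested of 8 listed. Within it Iapp (-0.45 in pair 1, 0.25 in pair 2), Slc2a2 (0.92 in pair 2) and Slc30a8 (0.02 in pair 2) had other signs. The genes of delta, PP and epsilon cells, 4 of 4 tested, had medians of 0.29, -0.28 and -1.0, although Hhex (0.34 in pair 3) and Ghrl (0.20 in pair 2) had other signs. The mesenchyme and the pericyte and smooth muscle medians, given with the pairs as a whole, had the same signs. Within the mesenchyme list, Col3a1 (0.01), Pdgfra (0.37), Twist1 (0.49) and Tcf21 (0.09) were above 0 in pair 2. Tcf21 (-0.31 in pair 1) and Pdgfra (0.25 in pair 3) also had other signs. So did Myh11 (-2.08 in pair 1, 0.77 in pair 3) and Cspg4 (0.30 in pair 3) of the pericyte and smooth muscle list. The other tested genes of these lists kept the signs of the medians. The delta, PP and epsilon list took 0.0276% to 0.0590% of counts in high glucose and 0.0474% to 0.0515% in control. No counted gene of the beta cell list or of the delta, PP and epsilon list was at 0. The part of these cells in the Nnat difference was not tested.

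**Figure D3:**
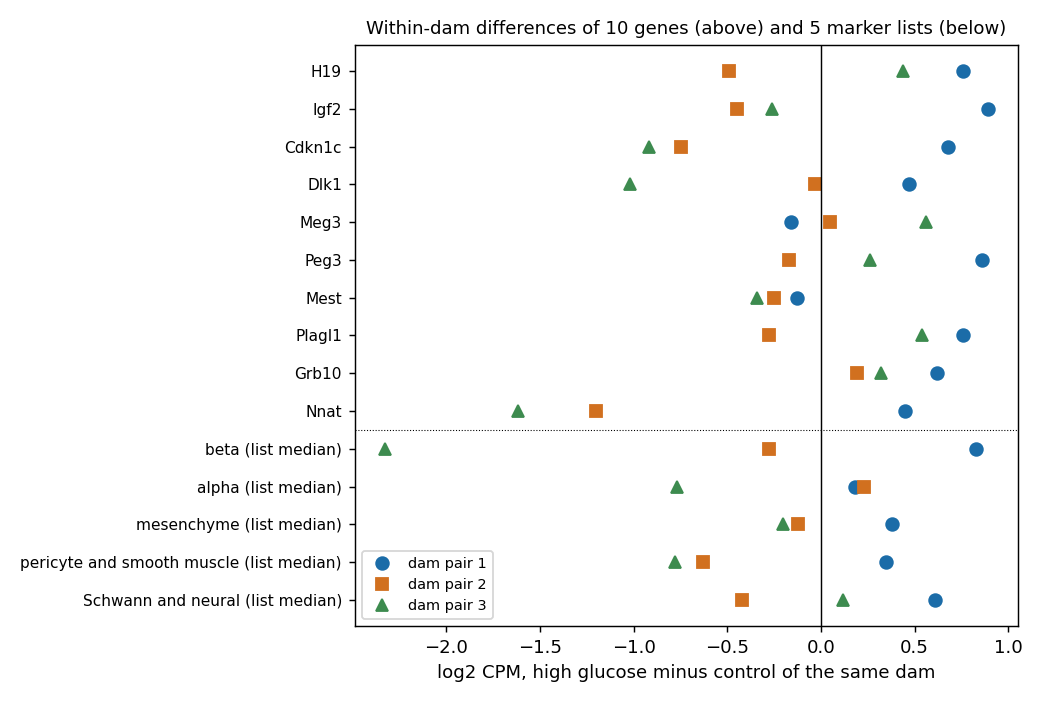
Difference in log2 CPM between the high glucose and control library of each dam, for the 10 genes (above the dotted line) and for the medians of 5 marker lists (below). Only Grb10 and Mest have all 3 points on one side of 0, and the Nnat points spread most among the genes, from 0.45 in pair 1 to -1.62 in pair 3.

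The direction of the differences varied between dam pairs. In pair 1, 8 of the 10 were higher in high glucose and the median log2 difference was 0.65. In pair 2, 2 were higher and the median was -0.26. In pair 3, 5 were higher and the median was 0.00. Over all genes tested the share higher in high glucose was 50.3%, 52.2% and 48.7%, and the median lay between -0.02 and 0.02. The mesenchyme list (9 genes tested of 10) had medians of 0.38, -0.12 and -0.20, and the pericyte and smooth muscle list (5 of 5) 0.35, -0.63 and -0.78. The Schwann and neural list (4 tested of 5) had medians of 0.61, -0.42 and 0.12, and took 0.0104% to 0.0145% of counts in high glucose and 0.00649% to 0.0138% in control. The pericyte and smooth muscle list took 0.0727% to 0.127% of counts in high glucose and 0.0624% to 0.219% in control. Col1a2, an untested mesenchyme gene, had a mean of 0.220 CPM, and no counted gene of these 3 lists was at 0. Of the other marker lists, blood and vessel genes were the ones whose medians lay below 0 in every pair. The median was -4.58, -1.26 and -3.59 for 3 erythroid genes tested, -0.62, -0.28 and -1.27 for 6 immune genes and -0.13, -1.28 and -0.26 for 6 endothelial genes. The 5 duct genes tested had medians of 1.38, 0.51 and 0.71, the 5 acinar genes tested -0.38, 0.63 and 3.80, and the 5 alpha cell genes 0.18, 0.23 and -0.77. No gene of any marker list was called by edgeR. DESeq2, which called 0.825% of all genes, called 2 duct genes higher (Cftr and Spp1) and 1 endothelial gene (Cldn5) and 3 erythroid genes (Alas2, Hbb and Slc4a1) lower in high glucose. The part of these cell types in the differences of the imprinted genes was not tested.

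For most of the genes, the range of dam means was larger than the mean size of the difference within pairs. The range of dam means, on the log2 CPM scale, was 1.78 for Plagl1, 1.61 for Cdkn1c, 1.59 for Meg3, 1.41 for Igf2, 1.31 for Mest and 1.27 for Dlk1. It was 1.05 for Peg3, 0.88 for H19, 0.57 for Nnat and 0.20 for Grb10. The median over the 10 genes was 1.29, beside 0.64 over the 7225 genes with a mean CPM of at least 20. The mean size of the difference within pairs had a median of 0.52 over the 10 genes and 0.26 over those 7225. The range between dams was thus the larger median over those 7225 genes as well. A range of dam means and a mean difference are also unlike measures. Among the 10, Nnat and Grb10 were the exceptions, with a mean difference within pairs (1.09 and 0.38) larger than their range between dams. The direction was not shared. Igf2, Cdkn1c, H19, Dlk1 and Meg3 were highest in dam 2, and Peg3 and Mest were lowest there. Plagl1 was highest in dam 1. Each dam gave only 2 libraries, so these ranges are descriptions.

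**Figure D4:**
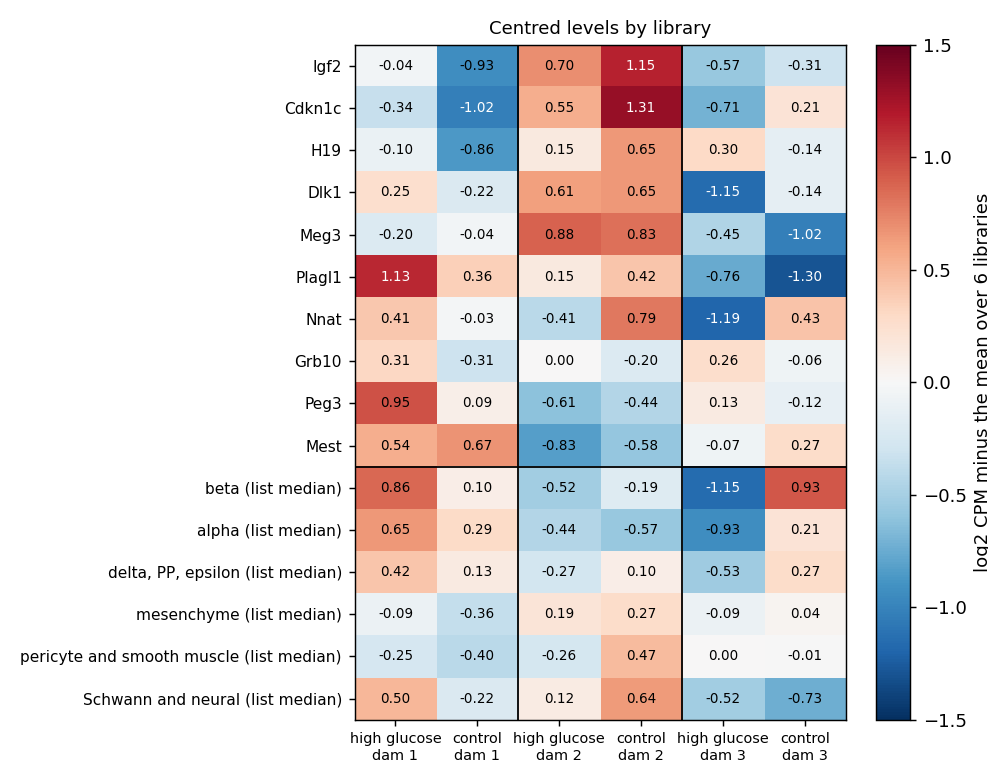
Log2 CPM of each gene, and of the median of 6 marker lists, minus its own mean over the 6 libraries, printed in each cell (red above the mean, blue below). Igf2, Cdkn1c, Dlk1 and Meg3 are red in both libraries of dam 2, where Peg3 and Mest are blue, and Grb10 stays within 0.31 of its mean in every library.

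The profiles over the libraries were then compared. Likeness was measured as the root mean square difference of centred log2 CPM over the 6 libraries, where 0 would be the same profile. The closest pairs among the 10 were Igf2 with Cdkn1c (0.27) and Peg3 with Mest (0.36). H19, although next to Igf2, was 0.47 from it. Against the marker lists, H19 was nearest to the pericyte and smooth muscle median (0.30) and next to the mesenchyme median (0.31), and Grb10 (0.30) and Cdkn1c (0.59) were nearest to the mesenchyme median. Plagl1 (0.44), Meg3 (0.45), Dlk1 (0.42) and Igf2 (0.51) were nearest to the Schwann and neural median, Mest to the alpha cell median (0.42), and Nnat (0.41) and Peg3 (0.46) to the delta, PP and epsilon cell median. A flat profile, with every library at the mean, was 0.22 from Grb10, nearer than any list median. It was 0.50 from Peg3, little farther than the nearest list of that gene. For H19 and Cdkn1c the flat profile was at 0.47 and 0.79. The mesenchyme median was itself rather flat, from -0.36 to 0.27 over the libraries, and this measure favours flat medians over widely swinging ones. These distances share libraries and dams and were not tested.

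Among 9681 genes with a mean CPM of at least 5, the 3 nearest to each gene were read off by the same measure. For Nnat they were the somatostatin gene Sst (0.21), Hmp19 (0.23) and Evi2a (0.23). For Dlk1 they were Pyy, a peptide hormone gene of fetal islets, Gap43, a growth cone protein gene, and Gstm7, at 0.16, 0.16 and 0.17. Pyy averaged 1363 CPM. For Plagl1 the nearest was Asb4 (0.18), itself one of the other imprinted genes listed, followed at a distance by Akap12 and Sema3a (0.33 each). For Igf2 they were Fkbp2 (0.09), Dnajc15 (0.12) and Dynlrb1 (0.13), and for Cdkn1c Fxyd1 (0.17), Kazald1 (0.18) and Olfm2 (0.22). H19 was nearest to Rnf208 (0.10), Dnajb5 (0.11) and Zbed3 (0.11), and Meg3 to Artn (0.11), Osr1 (0.11) and Ska1 (0.14). Peg3 was 0.14 from each of Golim4, Zc2hc1a and Bicc1. Mest was nearest to Usp22 (0.08), Zfp655 (0.08) and Socs4 (0.10), and Grb10 to Chst11 (0.06), Igsf3 (0.09) and Ephb2 (0.10). With so many genes and 6 libraries, close profiles can arise for many genes, and no test was made.

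Other imprinted genes were read beside the 10. Of 67 listed, 54 had a row in the files and 49 were tested, and none was called by edgeR or by DESeq2. In edgeR, 2 had an unadjusted p below 0.05, against 4.82% of all genes, and DESeq2 also gave 2. Their median log2 difference was 0.05, beside 0.00 over all genes tested. In all 3 pairs, 5 were higher and 3 lower in high glucose, against 11.8% and 11.2% of all genes tested. Ppp1r9a, which encodes an actin-binding protein of neurons, averaged 5.57 ± 3.61 CPM in high glucose and 2.49 ± 2.53 CPM in control (SD, n = 3 each), and its log2 differences of 0.61, 0.53 and 2.64 rested most on pair 3. The fit gave 1.30 (SE 0.50, edgeR adjusted p = 0.908). Further differences were 0.57 for the serotonin receptor gene Htr2a, 0.53 for Snurf and 0.51 for Cobl, whose protein nucleates actin. Each of these 3 changed sign between pairs. Read pairs on exons that Snurf shares with Snrpn may be missing from the Snurf count.

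The IGF axis, of ligands, receptors, binding proteins and their immediate effectors, also had no gene called by edgeR or by DESeq2. Of 26 listed, 24 were tested. In edgeR, 1 had an unadjusted p below 0.05, against 4.82% of all genes. DESeq2 gave 2 such genes here and 658 over all genes. The median log2 difference was 0.09. In all 3 pairs, 3 of the 24 were higher and 1 was lower in high glucose, against 11.8% and 11.2% of all genes tested. The 3 were Irs1, Pappa and Igf2r, and the groups overlapped for all of the 24. Irs1, the docking protein of the insulin and IGF1 receptors, averaged 15.5 ± 6.48 CPM in high glucose and 9.87 ± 4.32 CPM in control (SD, n = 3 each). It was higher in high glucose in all 3 pairs (0.67, 0.75 and 0.56 on the log2 scale), with a fit of 0.66 (SE 0.24, edgeR adjusted p = 0.836). Igfbp5 and Igfbp2, which encode IGF binding proteins, had fits of 0.64 and -0.55, and both changed sign between pairs. Pappa, whose protease releases IGFs from their binding proteins, had 0.38, 0.09 and 1.26 in the pairs and a fit of 0.59. Igfbp1 had a fit of -0.43 and also changed sign between pairs (-0.17, 0.99 and -2.11). Igf2r, the imprinted receptor that clears IGF2 protein, averaged 313 ± 77.6 CPM in high glucose and 261 ± 59.7 CPM in control, with log2 differences of 0.29, 0.23 and 0.25 and a fit of 0.26 (SE 0.18, edgeR adjusted p = 1).

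Proliferation genes were listed because Cdkn1c restrains the cell cycle. Of 21 tested, none was called by edgeR or by DESeq2, and none had an unadjusted edgeR p below 0.05. Their median log2 difference was 0.17. In all 3 pairs, 7 were higher and 1 was lower in high glucose, against 11.8% and 11.2% of all genes tested. Mki67, a mark of dividing cells, had log2 differences of -0.24, 0.11 and 1.68, and the related inhibitor Cdkn1b 1.17, 0.06 and 0.04. Bub1 and Ccnb2, genes of mitosis, both had a fit of 0.37. The cyclin gene Ccnd2 had a fit of -0.32, with 0.28, -0.94 and -0.32 in the pairs. Each of these had an edgeR adjusted p of 1.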

How the data were processed

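Poly(A) RNA was sequenced from stranded libraries, per the labels' protocols. The authors deposited unnormalized counts for each gene, from featureCounts 1.5.1 run on read pairs (strand setting 2, mapping quality at least 10, UCSC refGene annotation of rn6), per the file headers. STAR 2.5 is named in the submitters' processing notes. No option to count pairs that overlap several genes was set.

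Here, 12276 of 17321 genes passed filterByExpr and held 99.95% of counts. The test was the robust quasi-likelihood test of edgeR 4.0.16 (R 4.3.3, TMM, dam as a block, two-sided, Benjamini-Hochberg adjusted p below 0.05 over all genes). An SE is the log2 difference divided by the root of the test statistic. Log2 CPM used a prior count of 2. RPKM used the exon lengths in the files. DESeq2 1.42.0 was an alternative. The procedure was tested on simulated data. Replicates are dams, and a library is 1 pool of fetuses.

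Dams pair the libraries by the series design. Across genes, after group means were taken off, log2 CPM correlated at 0.474, 0.621 and 0.413 for libraries of 1 dam. For libraries of different dams the values were -0.454 to -0.004. With 3 libraries per group, taking off the means ties these values to each other.

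The genes, lists and tests were chosen with earlier results of these data known. Named by rule were the 10 genes, the 5 largest differences per pathway list at a mean CPM of at least 1, marker lists, and the 3 nearest profiles per gene at a mean CPM of at least 5. Igf2r was named in addition, after its values were seen. One gene that the rule named is not reported here. Synonyms matched 3 list genes.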

Additional observations from a re-analysis of the deposited data

How the results depend on the processing

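No imprinted growth gene passed in the main fit, with RLE size factors, without a low count filter, with a minimum mean count of 50, in DESeq2 or with no replicate block. Leaving out 1 dam pair gave 0 to 1, the 1 being Nnat without pair 1. The count over all genes was 2, and became 18 without the filter, 5 with the minimum of 50, 106 in DESeq2, 0 with no replicate block (192 genes at an unadjusted p below 0.05) and 18 to 55 without 1 pair. The cause was not tested. Other imprinted and IGF axis genes gave 0 under each of these settings.

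The sign turned for H19 without pair 1 (-0.03), for Igf2 with no replicate block (-0.12) and without pair 1 (-0.36), for Dlk1 without pair 3 (0.22) and for Meg3 without pair 3 (-0.05). Without 1 pair in turn the ranges were -0.03 to 0.60 for H19, -0.36 to 0.31 for Igf2, -0.53 to 0.22 for Dlk1, -0.05 to 0.30 for Meg3, -0.84 to -0.04 for Cdkn1c, 0.04 to 0.56 for Peg3, 0.13 to 0.65 for Plagl1, -0.30 to -0.19 for Mest, 0.25 to 0.47 for Grb10 and -1.42 to -0.37 for Nnat. The dam block changed no other sign or call of the 10 genes. Of 80 values for single genes under the alternatives, 74 kept their sign and their side of the threshold, 5 turned and 1 passed. With the block, leaving out 1 library removes its pair, and with 2 pairs left the spread is estimated mainly from all genes together. Meg3, at 89 to 235 counts, had the fewest counts of the 10.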
